A study of Mus musculus with 35 samples.

Results

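Oxidative phosphorylation is carried out by 5 protein complexes of the inner mitochondrial membrane, and the nuclear genes that encode their subunits are described here in single mouse embryonic fibroblasts (MEFs). The genes were chosen by symbol alone: those named Ndufa, Ndufb, Ndufc, Ndufs or Ndufv with a number, Sdha to Sdhd, every Uqcr and Atp5 symbol, the Cox4 to Cox8 symbols with a letter after the digit, and Cyc1 and Cycs. The symbols took in 85 of the 19085 genes in the deposited count table. Of these, 35 encode subunits of complex I, 4 of complex II, 9 of complex III, 15 of complex IV (Ndufa4 and Ndufa4l2, named after complex I, are counted here as its subunits) and 15 of complex V. Cycs encodes cytochrome c itself. Atp5s and Atp5sl match by name but encode no subunit, and 4 entries are processed pseudogenes (Uqcrh-ps2, Atp5l-ps1, Atp5l-ps2 and Atp5l2-ps). The symbols Cox4i1, Cox4i2, Ndufab1, Usmg5, 2010107E04Rik, Atpif1 and Cyct fall outside the rule and serve below as neighbours, while Cox7b2, Cox8b, Cox8c and Uqcrhl were not analysed here.

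The study asked what accompanies micronuclei, small chromatin bodies that lie apart from the main nucleus after a faulty division. All 35 cells were C57Bl/6J MEFs kept at 3% oxygen and given 1 Gy of ionising radiation. They were moved to membrane dishes 32 h later and cut out singly by laser after PicoGreen staining of their DNA at 48 h. In 21 cells micronuclei were present and in 14 cells, also irradiated, there were none, and unirradiated cells were not analysed here. The labels name no embryo, culture, plate or date, so each group counts as 1 sample whose libraries are single cells. Cells are numbered within their group, MN+ with micronuclei and MN- without. No p-value is given, differences are set against the spread between cells, and the exact 95% intervals cover counting error only, because Smart-seq2 reads of whole transcripts carry no molecular identifiers.

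Electrons from NADH enter the chain at complex I and those from succinate at complex II. They pass through ubiquinone to complex III and through cytochrome c to complex IV, which reduces oxygen, and complexes I, III and IV pump protons whose return drives ATP synthesis by complex V. All complexes but complex II mix nuclear subunits with subunits encoded in mitochondrial DNA. Core subunits include those that hold the redox centres or catalytic sites, and accessory subunits surround the core. Many of the nuclear genes are known targets of the transcription factors NRF1, the ETS family factor GABP and YY1.

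The letters these factors are known to read were searched in the promoters. RefSeq windows of build GRCm38.p6, from 250 bases before to 50 bases after the start, were found for 65 of the 85 genes. The motifs were GCATGCG for NRF1, CCGGAAG for ETS factors and AAGATGG for YY1, each on both strands; the NRF1 letters overlap their own reverse complement, and no motif overlaps another. The NRF1 letters stood in 12 windows (18.5%), against 8.61% of the 6490 measured genes with a window and 4.01% of the 27025 genes with a window. For ETS the count was 16 (24.6%, against 23.02% and 9.93%) and for YY1 10 (15.4%, against 9.35% and 7.28%). At least 1 of the 3 motifs stood in 31 windows (47.7%), against 36.02% and 19.3%. By complex, the NRF1 letters were in 3 of 31 windows of complex I, 1 of 3 of complex II, 2 of 5 of complex III, 1 of 12 of complex IV, 4 of 13 of complex V and in that of Cycs. Motif shares are descriptions of letters in these windows only, and they were not related to how genes varied across cells.

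For 4 genes the promoter is printed to show the range among genes that the results turn on, each from its 5′ end towards the start and cut where the GENCODE gene begins, with motif letters in capitals. Cox6a1 (chr5:115348982-115349208, minus strand) was the most even member from cell to cell and Cycs (chr6:50566570-50566819, minus strand) encodes the electron carrier. Uqcrc1 (chr9:108936398-108936632, plus strand) and Ndufv1 (chr19:4012807-4013005, minus strand) were among the members with the largest ratios between the groups of cells.
Cox6a1: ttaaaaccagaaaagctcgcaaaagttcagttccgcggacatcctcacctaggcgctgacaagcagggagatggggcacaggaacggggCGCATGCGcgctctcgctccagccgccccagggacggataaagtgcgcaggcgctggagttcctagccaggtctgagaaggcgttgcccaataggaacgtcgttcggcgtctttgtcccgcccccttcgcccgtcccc
Cycs: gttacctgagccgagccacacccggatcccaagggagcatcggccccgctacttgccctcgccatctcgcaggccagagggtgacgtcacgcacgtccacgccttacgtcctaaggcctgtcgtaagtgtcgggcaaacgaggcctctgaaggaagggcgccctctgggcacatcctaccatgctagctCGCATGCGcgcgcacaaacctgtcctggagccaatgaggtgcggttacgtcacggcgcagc
Uqcrc1: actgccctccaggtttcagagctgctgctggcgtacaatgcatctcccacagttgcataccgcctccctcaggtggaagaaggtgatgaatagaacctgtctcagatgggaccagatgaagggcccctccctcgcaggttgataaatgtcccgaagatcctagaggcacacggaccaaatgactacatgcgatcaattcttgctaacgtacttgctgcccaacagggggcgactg
Ndufv1: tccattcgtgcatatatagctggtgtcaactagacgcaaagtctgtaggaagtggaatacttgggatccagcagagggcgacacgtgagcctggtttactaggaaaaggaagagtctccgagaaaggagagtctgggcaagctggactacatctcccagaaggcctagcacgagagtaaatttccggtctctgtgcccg
In Cox6a1 and Cycs the NRF1 letters are read on both strands, from 161 to 154 bases before the RefSeq start in Cox6a1 and from 61 to 54 in Cycs. Cox6a1 also holds the ETS letters 16 to 10 bases before the start, outside the bases printed. Uqcrc1 holds the NRF1 letters only after the start, and none of the 3 motifs lies in the window of Ndufv1.

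Depth and cell state bear on every value that follows. Reads on genes ranged from 57514 to 1794113 per micronucleated cell (median 281800) and from 56766 to 2023111 per other cell (median 736715), and cells held 2391 to 8964 genes with a read. Values are CPM, a gene's reads scaled to a common total of reads on genes in each cell or group, with spike-ins left out. Fibroblast markers had reads for 10 of 10 genes, summing to 2873 to 15142 CPM with micronuclei and 5026 to 16419 without. Of 12 macrophage markers all had reads somewhere and 1 was measured; their sum had a median of 0 in both groups and reached 16622 CPM in MN+ cell 10, 1452 in MN+ cell 6, 468.8 in MN+ cell 18 and 336.1 in MN+ cell 4, and at most 64.1 CPM in cells without micronuclei. Endothelial, epithelial and adipocyte lists had no measured gene. In a list of 9 striated muscle markers 1 was measured, Acta1, at 828.5 CPM with micronuclei and 319.5 without (log2 ratio 1.37, of steady sign), and Myh3 had no read. The list summed to a median of 196.4 and at most 6445 CPM per cell with micronuclei, and to 155.9 and at most 2144 without; its part in the results was not tested. In 6 cells there were under 4000 genes or over 9% of reads on mitochondrial transcripts (MN+ cells 4, 6, 18 and 21 and MN- cells 1 and 5). These are called the doubtful cells. Values without them are given for the sums and some members, and their part in the results was not tested. The cut on genes was not adjusted for depth. MN- cells 7 and 8 passed it with 4156 and 4118 genes from 2023111 and 1418800 reads. Thinned to an equal depth, they held 3019 and 3084 genes, and MN+ cell 11 held 3779. The doubtful MN- cells 1 and 5 then held 3090 and 2999. MN- cells 7 and 8 and MN+ cell 11 stay in the values without the doubtful cells.

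Nuclear genes of the chain were detected in nearly every cell, at similar total levels in both groups. A gene is called measured when it reached 5 CPM over all cells and 5 reads in at least 5 cells, which held for 77 of the 85 members and 8390 genes in all; the members below it were the 4 pseudogenes, Atp5sl and the tissue-restricted isoforms Cox6a2, Cox7a1 and Ndufa4l2. Of the 77, a cell had 5 or more reads for between 55 and 77, the medians being 72 (MN+) and 71.5 (MN-), and 28 members reached 5 reads in all 35 cells. The 85 genes together took 23848 CPM of the summed reads with micronuclei and 25550 CPM without. Per cell the sum ran from 10878 CPM through a median of 22976 to 33212 in micronucleated cells and from 18820 through 24441 to 29549 in the others. The groups overlapped, and the difference of medians was below the SD of either group (5777 and 2809 CPM).

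The spread of that sum was wider among micronucleated cells. Its coefficient of variation (CV, SD over mean) was 0.26 over 21 cells with micronuclei and 0.12 over 14 without. Below the lowest other cell lay 6 micronucleated cells, and above the highest lay 3. The lowest of all were MN+ cell 18, with 25.7% mitochondrial reads, and MN+ cell 4, with 9.57%, while cells without micronuclei had at most 3.81%. Without the 6 cells of few genes or many mitochondrial reads the SDs were 5043 and 2636 CPM. With each cell thinned to 100000 reads, which left 18 and 13 cells, they were 5607 and 2886. A wider spread with micronuclei was not particular to these genes. Cytosolic ribosomal protein sums had CVs of 0.30 with and 0.16 without micronuclei, and mitochondrial ribosomal protein sums 0.25 and 0.17. Without the same 6 cells these CVs were 0.33 and 0.17, and 0.19 and 0.18. Single genes split otherwise, with no test of either spread: 33 of 77 members had the larger CV with micronuclei, and complexes IV and V had it in 14 of 27.

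**Figure D1:**
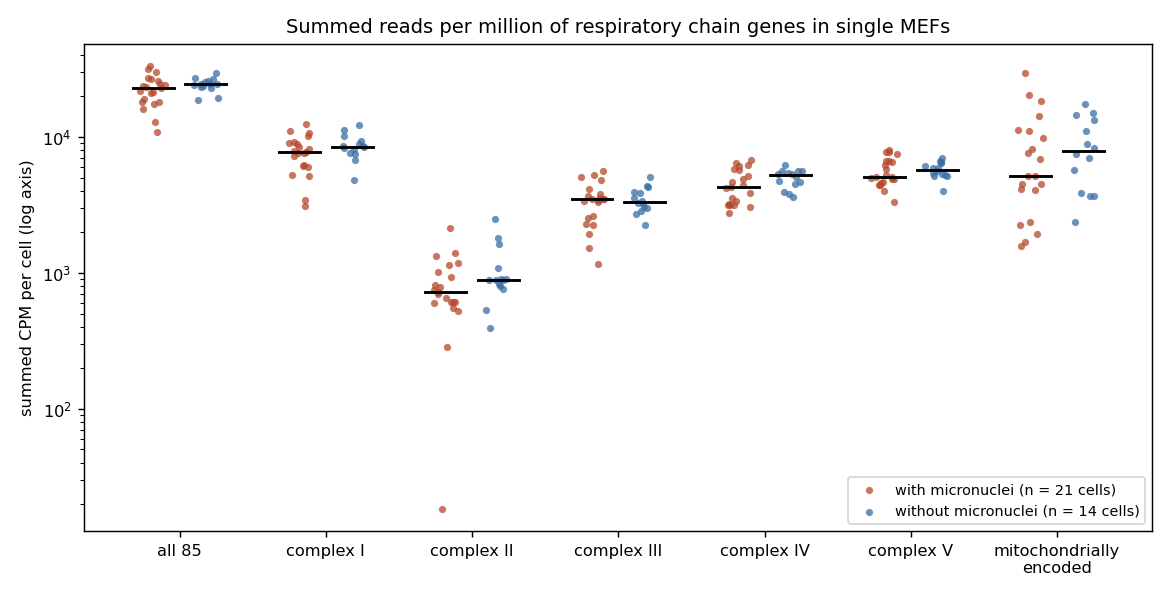
Summed CPM per cell (log axis) of all 85 nuclear genes, of each complex and of the mitochondrially encoded subunits; each point is 1 cell, 21 with and 14 without micronuclei, and bars are medians. The nuclear sums overlap between groups, micronucleated cells reach further down and up, and complex II is at 18.2 CPM in 1 micronucleated cell.

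The complexes showed how this total is made up. Complex I members summed to 8654 CPM with micronuclei and 9462 without, complex II to 899.6 and 1069, complex III to 3813 and 3695, complex IV to 4417 and 4827, and complex V to 5608 and 6017. Per cell complex I ran from 3125 through 7781 to 12513 CPM with micronuclei and from 4845 through 8496 to 12243 without. Complex III ran from 1163 through 3469 to 5660 CPM and from 2258 through 3324 to 5068. Complex IV ran from 2735 through 4279 to 6761 CPM and from 3587 through 5209 to 6221, and complex V from 3342 through 5086 to 8033 and from 4029 through 5752 to 7039. In each of these 4 complexes the lowest cell was MN+ cell 18. Complex II was the least even, from 18.2 through 722.1 to 2127 CPM with micronuclei and from 392.5 through 887.9 to 2491 without. Its lowest value came from MN+ cell 6, which had 2391 genes, and without the 6 doubtful cells it ran from 526.3 to 1391 and from 392.5 to 1811 CPM.

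Levels between members were compared per length, as CPM per kilobase of gene model (RPKM), averaged over 35 cells with equal weight. The lengths were of 2 kinds, all exons merged and the longest principal transcript, since merged exons are far longer than the main transcript for some members. With merged exons the highest were Ndufa2, an accessory subunit of complex I, at 1402 RPKM (SD over cells 600.5), Uqcr11, the smallest subunit of complex III, at 1387 (SD 675.8), Cox6a1, the widespread form of subunit 6A of complex IV, at 1239 (SD 447.6), and Cox6b1, which sits on the outer face of complex IV, at 1056 (SD 449.0). With the principal transcript the same 4 led in another order, Uqcr11 at 1999, Cox6a1 at 1523, Ndufa2 at 1402 and Cox6b1 at 1210. These neighbours differ by less than their SD over cells.

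Behind the leaders each complex had its own order. Next in complex I with merged exons came the accessory genes Ndufa1 at 872.9 RPKM (SD 453.6) and Ndufa8 at 546.9 (SD 314.5). With the principal transcript Ndufa7, named after its values were seen, stood between Ndufa2 and Ndufa1 at 891.1. In complex III Uqcr10 stood at 721.1 (SD 344.1) with merged exons and 970.3 with the principal transcript, and Uqcrq at 369.1 (SD 147.2) and 444.3. In complex IV Cox8a was at 765.0 (SD 330.3) and 860.9. With merged exons complex V was led by Atp5o, the subunit that joins the stator to the catalytic head, at 295.3 (SD 132.0), Atp5b, the catalytic beta subunit, at 211.1 (SD 96.3), and Atp5k, subunit e, at 211.0 (SD 107.2). With the principal transcript those 3 stood at 694.8, 466.9 and 350.4, and Atp5j, also named after its values were seen, led at 731.5. In complex II the membrane anchor Sdhd was at 237.2 RPKM (SD 275.1) and the iron-sulphur subunit Sdhb at 185.1 (SD 104.8), above the second anchor Sdhc at 38.5 (SD 35.1) and the flavoprotein Sdha at 21.0 (SD 22.1). The principal transcript reverses the first pair, with Sdhb at 362.9 and Sdhd at 237.2. With merged exons the electron carriers were close to each other, Cycs at 114.2 (SD 56.3) and cytochrome c1, Cyc1, at 114.0 (SD 107.0). With the principal transcript they stood at 124.5 and 161.5. The lowest measured member with merged exons was Ndufs1, the large iron-sulphur subunit of complex I, at 5.18 RPKM (SD 6.75), and by principal transcript Atp5s at 9.21.

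In families of related subunit genes the muscle and hypoxia-linked forms had few reads. Reads of the COX7A family and of the genes for subunit c were not held almost wholly by a single gene. Cox6a1 held 99.9% of reads on the COX6A pair, and Cox6a2, the heart and muscle form, had 10 reads in 2 micronucleated cells and 0 in the cells without micronuclei. Of the COX7A genes Cox7a2 held 74.6%, Cox7a2l 25.3%, and the muscle form Cox7a1 0.10%, its 12 reads lying in 2 micronucleated cells. Ndufa4 held 99.9% against 10 reads of Ndufa4l2, which hypoxia is known to induce. Outside the rule, Cox4i1 had 22134 reads and its hypoxia-linked partner Cox4i2 5, and Cycs had 10012 reads against 2 of the testis form Cyct. Each of Cox6a2, Cox7a1, Ndufa4l2, Cox4i2 and Cyct was at 0 in cells without micronuclei, where 3 reads, 0.258 CPM, is the limit a count of 0 allows. Of the genes for subunit c of complex V, whose mature protein is the same for all, Atp5g1 held 73.3% of reads, Atp5g3 23.7% and Atp5g2 2.94%. Per length that order depended on the model: Atp5g1 was at 140.9 and Atp5g3 at 132.6 RPKM with merged exons, and 146.8 against 400.1 with the principal transcript. Reads of the 4 pseudogenes numbered 2 to 15, though near-identical copies can take reads from each other.

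Cox6b2, the testis form of subunit 6B, differed from the other restricted forms in reaching the measured level through a few cells. It held 2.605% of the reads of the pair, with 5 or more reads in 7 of 35 cells and none in 25. Micronucleated cells ran from 0 through 0 to 223.4 CPM and the others from 0 through 0 to 139.3, the highest being MN+ cell 11 and MN- cell 5. Its CV of 2.96 was the largest among measured members. Its log2 ratio between groups, 0.93, was −1.50 without MN+ cell 11, 3.19 without MN- cell 5 and 3.25 without the 6 doubtful cells, so no direction is read from it.

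The members were even from cell to cell compared with measured genes in the same wide bands of abundance. Their median CV over 35 cells was 0.55, against 1.54 over all 8390 measured genes. Those genes are on the whole less abundant, with a median level of 37.7 CPM against 283.8 over members. Level within a band was not matched, and its part in the differences below was not tested. Among genes with a mean of 50 to 500 CPM the median was 0.57 over 62 members and 1.08 over all 3111 genes, and 58 of the 62 lay below that 1.08. Above 500 CPM it was 0.43 over 10 members and 0.52 over 277 genes, and below 50 CPM it was 1.30 over 5 members and 1.90 over 5002 genes. Mitochondrial ribosomal proteins, also nuclear and also mitochondrial, had a median of 0.91 over 53 genes in the middle band, and cytosolic ribosomal proteins 0.44 over 33. After thinning the members stood at 0.61 and all genes at 1.12 in that band. Across the 77 members CV and mean CPM had a Spearman rho of −0.75, and CV and principal transcript length 0.45, against −0.74 and 0.19 across 8088 measured genes with a length; genes are not independent replicates.

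**Figure D2:**
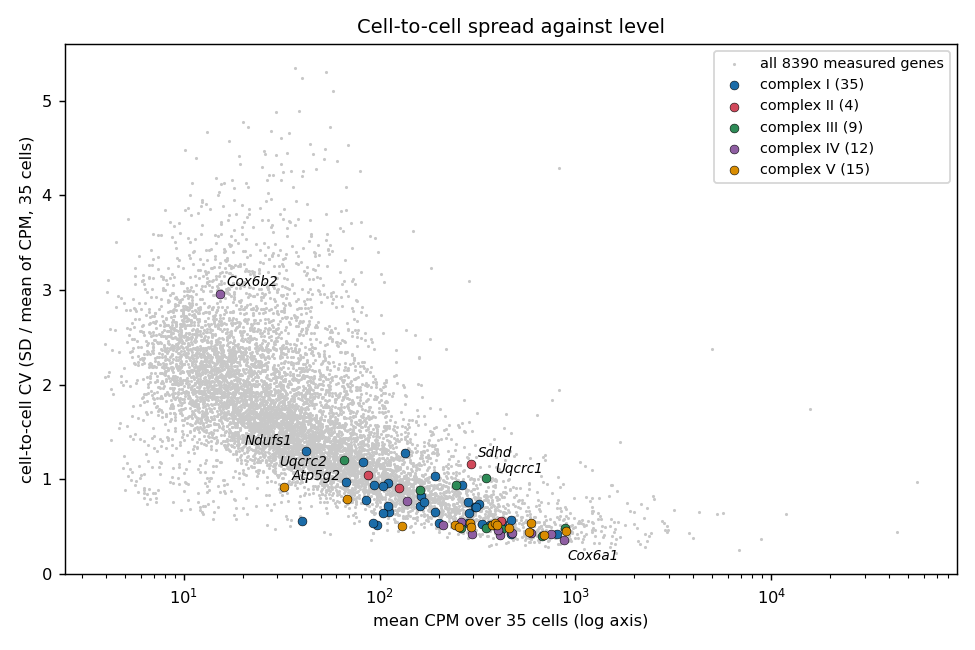
Cell-to-cell CV of CPM against mean CPM over 35 cells (log axis) for all 8390 measured genes (grey) and the measured subunits of the 5 complexes (colours; Cycs and Atp5s are among the grey points). Of all 77 measured members 70 lie below the median of their abundance band, with Ndufv1, Sdhd, Uqcrc2 and Cox6b2 among those that do not.

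Evenness differed by role within the chain, and the part of level and transcript length in this was not tested. By complex the median CV was 0.45 for IV, 0.49 for III, 0.52 for V, 0.71 for I and 0.98 for II. The most even members were Cox6a1 at 0.36, Uqcrq, a small subunit near the quinone site of complex III, at 0.40, and Cox5b, a zinc-binding subunit of complex IV, at 0.41. Cox6a1 ran from 410.8 through 729.7 to 1321 CPM with micronuclei and from 176.1 through 912.2 to 1496 without, and it had at least 5 reads in every cell. In complex I all 28 accessory genes lay below the median CV of their abundance band, with a median of 0.64, and 5 of the 7 core genes did, with a median of 0.97. The core genes had the lower median level, 135.1 against 195.8 CPM, and the longer principal transcripts, 1623 against 747.5 bases.

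In complex III the same split was seen, in a grouping made after the values were seen. The core proteins Uqcrc1 and Uqcrc2, cytochrome c1 and the Rieske iron-sulphur protein Uqcrfs1 had CVs of 0.89 to 1.202. The 5 small subunits Uqcrq, Uqcr10, Uqcr11, Uqcrh and Uqcrb had CVs of 0.40 to 0.49. The first 4 genes had the lower median level, 203.0 against 421.1 CPM, and the longer principal transcripts, 1586.5 against 535 bases. Cyc1 and Uqcrb, picked after values were seen, had summed levels of 276.3 and 290.0 CPM with micronuclei and 332.4 and 187.8 without. Their CVs were 0.94 and 0.49 and their principal transcripts 1520 and 535 bases. The part of level and length in the split was not tested. All 4 genes of complex II, which has no small accessory subunits, had CVs of 0.57 to 1.16. The catalytic head of complex V differed from this: its 5 genes, with Atp5b and the alpha subunit Atp5a1 among them, had CVs of 0.46 to 0.54.

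How closely members varied together across cells differed among them; the differences were not tested, and the split into small and core subunits of complex III was made after values were seen. For each member the log2 level was correlated with the summed level of the other members over 35 cells, which share library and total, so the values are descriptions. The median Spearman rho over the 77 members was 0.32, against −0.09 for 8313 other measured genes with the sum of all members and 0.09 for mitochondrial ribosomal proteins. These sets were not matched for level. Median levels were 283.8 CPM over members, 37.7 over all measured genes and 80.5 over mitochondrial ribosomal proteins. The median number of cells with 5 reads was 34, 16 and 26, and the part of level was not tested. Uqcrq, at 0.78, had the highest, and the small subunits of complex III had a median of 0.49 against −0.02 for its 4 core genes. Complex I accessory genes had a median of 0.38 and core genes 0.13. In complex V the stalk and membrane subunits had a median of 0.55, the subunit c genes, kept apart from them, 0.20, and the head 0.03. Head genes ran from −0.47 to 0.48, with Atp5e at 0.48 and Atp5d at 0.32. Atp5b was the lowest of all members at −0.47, and Atp5a1 was at −0.21. Complex II genes ran from −0.26 to 0.06. Single genes crossed these groups, with the small subunit Cox7a2l at −0.07 and the core protein Uqcrc1 at 0.26. Ndufs1 and Uqcrc2 had 5 reads in 20 cells each and Atp5b and Atp5a1 in all 35; the part of depth was not tested.

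Sums of whole complexes other than II were positively correlated over all 35 cells. Over 35 cells the log2 sums of complexes I and III had a Pearson r of 0.84 and a Spearman rho of 0.73. Without MN+ cells 18 and 4, the farthest from the median of complex I, r was 0.71. Complexes I and IV had r 0.70 and rho 0.59 (r 0.61 without the same cells), I and V 0.68 and 0.56 (0.52), III and V 0.70 and 0.58 (0.56), III and IV 0.59 and 0.50 (0.44), and IV and V 0.69 and 0.70 (0.63 without MN+ cells 18 and 5). Within groups the relation of I and III had r 0.93 over 21 micronucleated cells and 0.43 over 14 others, that of IV and V 0.85 and −0.01, and that of III and IV 0.70 and −0.04. Over the 29 cells left without the 6 doubtful ones r was 0.74 for I and III, 0.59 for I and IV, 0.55 for I and V, 0.46 for III and IV, 0.57 for III and V and 0.61 for IV and V. Complex II with I, III, IV and V gave r between −0.06 and 0.06. Without its own 2 outlying cells, MN+ cell 6 and MN- cell 1, r with complex III was 0.36. Positive relations were not particular to the chain. The log2 sum of cytosolic ribosomal proteins had r 0.57 with complex IV, 0.55 with V and 0.13 with I over 35 cells. Without the 6 doubtful cells these were 0.68, 0.67 and 0.25.

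**Figure D3:**
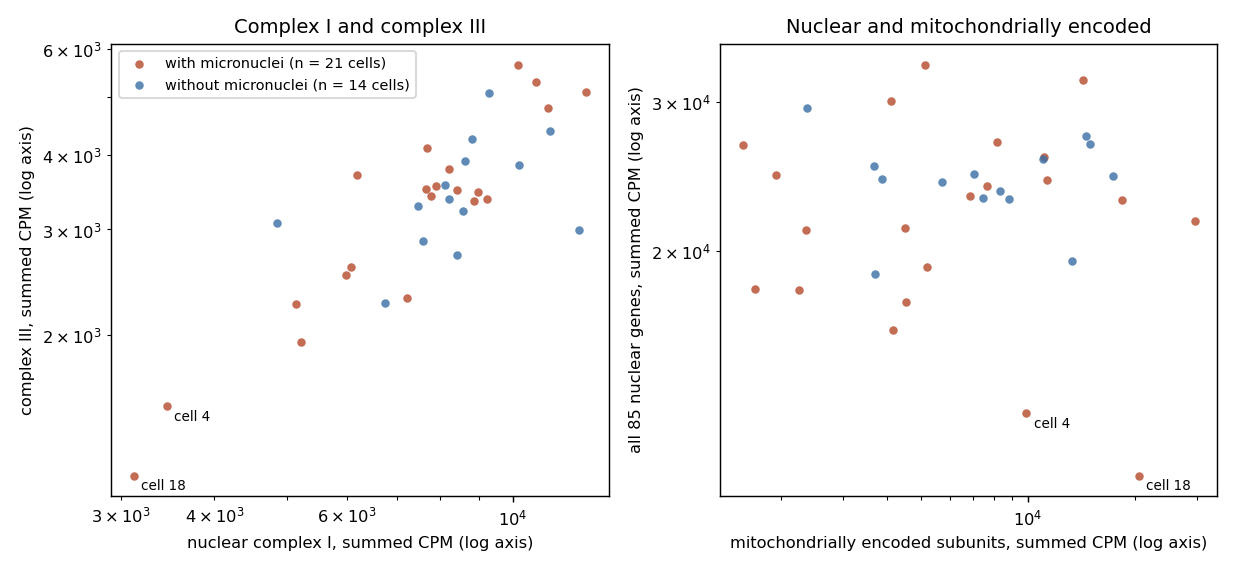
Left, summed CPM of complex III against nuclear complex I; right, summed CPM of all 85 nuclear genes against the mitochondrially encoded subunits, per cell and on log axes, for 21 cells with and 14 without micronuclei. Cells high in complex I were mostly high in complex III (r 0.84, and 0.71 without MN+ cells 18 and 4), while the nuclear and mitochondrially encoded sums have r −0.04, and 0.38 without the 6 cells of few genes or many mitochondrial reads.

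Subunits encoded in mitochondrial DNA were compared with the nuclear ones in the same way. Their log2 sum and that of the nuclear members had r −0.04 and rho 0.05 over 35 cells, and r 0.38 and rho 0.31 over the 29 cells left without the 6 doubtful ones. Mitochondrial ribosomal proteins, which translate those subunits, had r 0.83 and rho 0.68 with the nuclear members (r 0.64 without MN+ cells 18 and 4). The mitochondrially encoded sum rests on 8 of 13 genes: mt-Nd1 had 49845 reads and mt-Cytb 35967, while mt-Co2, mt-Co3, mt-Atp6, mt-Atp8 and mt-Nd4l had 105 reads together. Per cell that sum ran from 1566 through 5190 to 29566 CPM with micronuclei and from 2383 through 7895 to 17402 without. The share of spike-in reads, at most 7.39%, had r 0.25 and rho 0.25 with the nuclear sum over 35 cells, with r 0.51 within micronucleated cells and −0.87 within the others. Its part in these relations was not tested.

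Outside the chain, the genes whose log2 level followed the nuclear sum most closely over 35 cells were Uqcc2, an assembly factor of complex III, with a Spearman rho of 0.82, Rps27l (0.75), Usmg5, a small subunit of complex V (0.71), Sod1, the cytosolic superoxide dismutase (0.70), and Sec61b, a small subunit of the protein-conducting channel of the endoplasmic reticulum (0.69). Uqcc2 ran from 0 to 912.3 CPM over cells and Usmg5 from 164.9 to 773.1. They were picked from 8313 genes by that value.

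Between the groups of cells most members were lower with micronuclei by small amounts. The log2 ratio of CPM over summed reads, with 1 CPM added, was above 0 for 29 of 77 members (37.7%, where 56% of all measured genes were higher) and below 0 for 48 (62.3%, where 44% were lower). Its median was −0.14 over members and 0.15 over all measured genes. The direction depended on the scale: the median was −0.11 with equal weight for each cell (26 higher, 51 lower), −0.28 with TMM scaling (17 and 60), −0.23 with scran size factors (22 and 55) and 0.01 for mean log2 CPM (39 and 38). TMM moved the median of all genes from 0.15 to 0.01 and mean log2 CPM moved it to 0.30. The members' median minus that of all genes was −0.28 as reported and between −0.30 and −0.15 in the alternatives that changed the scale, the filter, the depth or more than 1 cell. Leaving out 1 cell at a time moved the members' median between −0.24 (without MN+ cell 11) and −0.06 (without MN+ cell 7).

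Few members passed 2-fold. There were 3 higher by 2-fold or more (3.9%, where 22.9% of measured genes were) and 0 lower (where 14.7% were), and among genes with a mean of 50 CPM or more 3 of 72 members against 12.9% of genes higher and 0 against 9.68% lower. No test was possible for this count, as each group is 1 sample. With mean log2 CPM the counts were 8 and 1, where 21.5% and 5.28% of measured genes passed. Without the 4 cells with over 100 CPM of macrophage markers they were 5 and 2, where 23.3% and 15.6% passed. Leaving out 1 cell gave 3 to 6 higher and 0 to 2 lower. The sign was the same in summed reads, with equal weight and in all 35 leave-outs for 15 higher members (19.5%, where 33.5% of measured genes were such) and 27 lower ones (35.1%, where 20.1% were), and it depended on weighting or 1 cell for 35. With equal weight 2 members passed 2-fold higher (2.6%, where 15.7% of measured genes did) and 0 lower (where 10.5% did). Among the 72 members of 50 CPM or more, 26 were higher and 46 lower (36.1% and 63.9%, where 52.5% and 47.5% of such genes were). In equal weight 2 of the 72 passed 2-fold higher (2.78%, where 7.73% did) and 0 lower (where 5.43% did). The sign held for 14 higher (19.4%, where 32.1% did) and 26 lower ones (36.1%, where 24.4% did). No measured member had groups of cells that did not overlap, and of all 8390 measured genes 0 (0%) had.

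**Figure D4:**
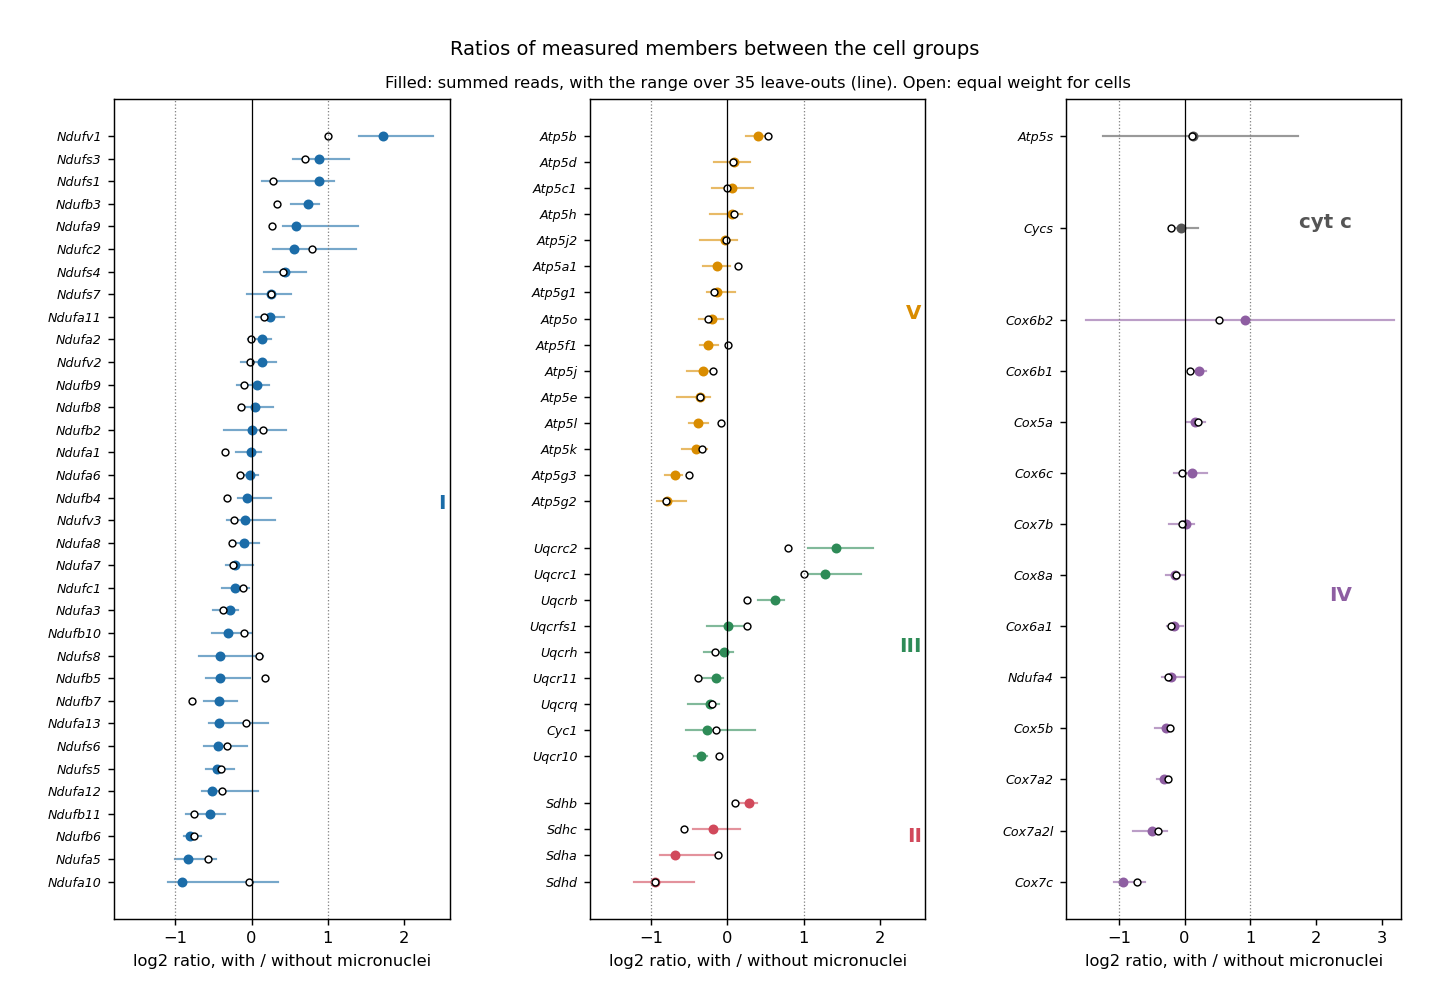
Log2 ratio of CPM with over without micronuclei for measured members by complex: filled points are summed reads, lines the range over 35 leave-outs of 1 cell, open points equal weight for each cell; dotted lines mark 2-fold. Ndufv1, Uqcrc2 and Uqcrc1 lie above 2-fold in summed reads, and most others lie within it on the lower side, a side that mean log2 CPM does not show.

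In complex I 14 members were higher and 21 lower, with a median log2 ratio of −0.09 (0.17 in mean log2 CPM). The core genes stood on the other side from the accessory ones: 5 of 7 were higher, with a median of 0.26, and 9 of 28 accessory genes were, with a median of −0.16. The core median was −0.01 without MN- cell 7 and 0.52 without MN- cell 4; with equal weight it was 0.26, with scran factors 0.17 and in mean log2 CPM 0.75. The accessory median was −0.14 with equal weight, −0.25 with scran factors and 0.004 in mean log2 CPM. The difference of core and accessory genes was not tested.

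Ndufv1, the flavoprotein that takes electrons from NADH, had the largest ratio of all members. It ran from 0 through 75.9 to 400.0 CPM in micronucleated cells and from 0 through 4.19 to 207.2 in the others. The groups overlapped, and at least 5 reads were found in 16 of 21 cells (76.2%) and 8 of 14 (57.1%). Summed reads gave 149.2 CPM with micronuclei (counting interval 142.1 to 156.6) and 44.3 without (40.6 to 48.4). The log2 ratio was 1.73. It was 1.01 with equal weight, 1.06 after thinning and 2.39 without MN- cell 4. The difference of cell medians was below the SD over cells of either group (106.5 and 73.1 CPM).

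Ndufs3, another core subunit of complex I, had the fourth largest ratio among members whose sign held. It ran from 0 through 60.2 to 286.0 CPM with micronuclei and from 0 through 29.7 to 148.3 without, and 1 of 21 against 5 of 14 cells had no read. Its log2 ratio was 0.89, 0.71 with equal weight and 2.00 in mean log2 CPM, a scale on which cells without reads weigh more. Exons of Ndufs3 overlap Kbtbd4 on the opposite strand, and whether counting used strand is not given in the sources used here. Ndufs1 had the same ratio of 0.89, but it was 0.28 with equal weight and 0.14 without MN+ cell 7, which held 31.3% of its reads. The signs of Ndufs7, Ndufs8 and Ndufv2 depended on weighting or on a cell.

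Accessory genes of complex I with a steady sign differed in both directions. Higher ones, named after their values were seen, were Ndufb3 at 0.74 (0.34 with equal weight), Ndufa9 at 0.59 (0.27) and Ndufc2 at 0.55 (0.79, but 0.14 without the 6 doubtful cells). Without MN- cell 8 Ndufa9 was at 1.40, and without MN- cell 4 Ndufc2 was at 1.37. Lower ones included Ndufb6 and Ndufa5. Ndufb6, in the membrane arm, ran from 0 through 212.9 to 527.7 CPM with micronuclei and from 181.7 through 350.5 to 640.1 without. Its log2 ratio was −0.81 in summed reads, −0.75 with equal weight and −1.18 in mean log2 CPM, and 1 micronucleated cell had no read of it; its exons overlap Smim27 on the opposite strand. Ndufa5, in the peripheral arm, ran from 35.97 through 94.98 to 194.6 CPM and from 1.01 through 123.3 to 352.3. Its ratio was −0.83, −0.57 with equal weight, −0.21 after thinning and −0.09 in mean log2 CPM. The abundant accessory genes hardly differed in summed reads, with Ndufa2 at 0.13, Ndufa1 at −0.002 and Ndufa8 at −0.10, none with a steady sign. Ndufa10, named after its values were seen, had −0.91, which became 0.35 without MN- cell 7. That deep cell, with 3019 genes after thinning, held the most reads of 26 members.

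Complex II had the lowest median, −0.44, on 4 genes (−0.35 with equal weight, −0.02 in mean log2 CPM). Sdhd, the small anchor, ran from 4.91 through 200.7 to 929.7 CPM with micronuclei and from 0 through 273.6 to 1466 without. Its log2 ratio was −0.95 in both weightings, −0.44 without MN- cell 8 and −1.22 without MN- cell 7. Sdha ran from 0 through 69.1 to 273.2 CPM and from 0 through 53.3 to 350.4, so that its summed ratio of −0.69 goes against the medians, and in mean log2 CPM it was 0.64. Sdhb was the one higher gene, at 511.6 CPM against 422.1 (0.28), with −0.28 in mean log2 CPM. Sdhc had −0.18 in summed reads and 0.71 without the 6 doubtful cells.

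Complex III held 2 of the 3 members past 2-fold. Uqcrc1, a core protein, ran from 0 through 439.4 to 1679 CPM with micronuclei and from 0 through 147.4 to 764.2 without. Summed reads gave 594.7 CPM with micronuclei (counting interval 580.4 to 609.2) and 244.9 without (236.0 to 254.1). The log2 ratio was 1.28, with 1.00 under equal weight, 0.99 after thinning and 1.15 without the 6 doubtful cells. The difference of medians exceeded the SD of 228.2 CPM in cells without micronuclei and not that of 398.7 in micronucleated cells. Its partner Uqcrc2 ran from 0 through 33.5 to 264.5 CPM and from 0 through 33.5 to 186.5. The medians were the same to the digits given, although the log2 ratio was 1.43 in summed reads, 0.79 with equal weight and 1.06 without MN+ cell 7. At least 5 reads were found in 12 of 21 and 8 of 14 cells, the same share of 57.1%. MN+ cell 7 held 23.7% of its reads. Its exons overlap Pdzd9 on the opposite strand.

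The other genes of complex III went both ways. Uqcrb was higher at 0.62 with a steady sign (0.26 with equal weight). Uqcr10 was lower at −0.35 (−0.11 with equal weight), Uqcrq at −0.23 and Uqcr11 at −0.15, the last 0.001 without the 6 doubtful cells. Uqcrh was at −0.04. Cyc1 ran from 0 through 275.0 to 495.2 CPM with micronuclei and from 0 through 151.8 to 1176 without. Its ratio of −0.27 became 0.36 without MN- cell 8, and in mean log2 CPM it was 0.58. Its partner in electron transfer, Cycs, ran from 0 through 385.5 to 645.0 CPM and from 150.5 through 343.4 to 983.2, with a ratio of −0.06 that reached 0.20 without MN- cell 8.

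**Figure D5:**
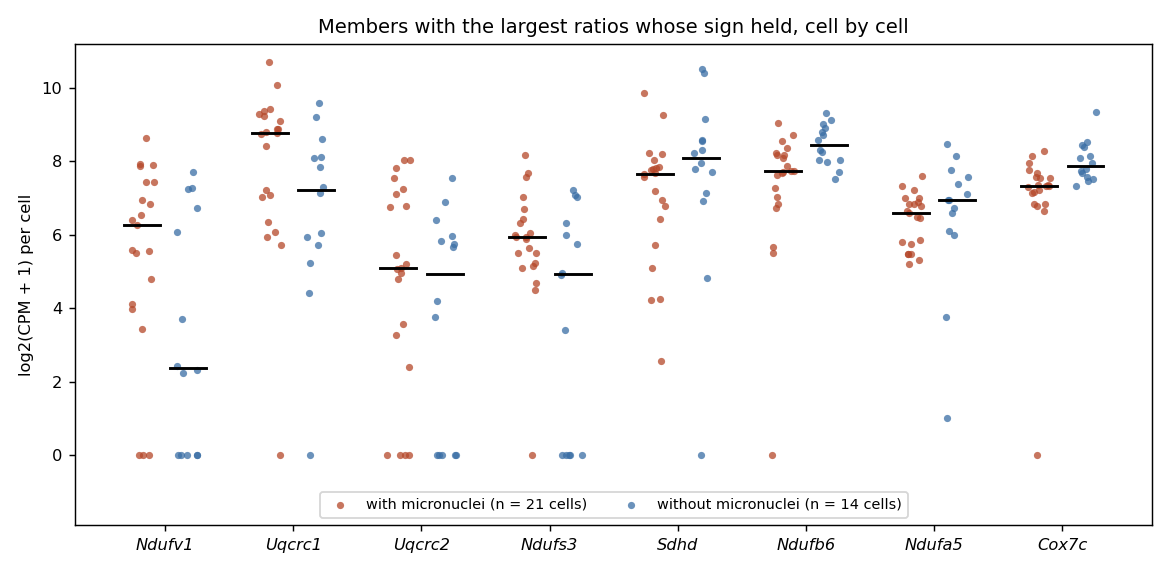
Log2(CPM + 1) per cell of the 4 higher and 4 lower members with the largest ratios whose sign held in summed reads, equal weight and every leave-out; each point is 1 cell (21 with, 14 without micronuclei) and bars are medians. The groups overlap for every gene, and cells at 0 are frequent for Ndufv1 and Uqcrc2 and rare for Ndufb6, Ndufa5 and Cox7c.

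In complex IV 5 genes were higher and 7 lower, with a median of −0.15 (−0.02 in mean log2 CPM, and 0.02 when the 3 genes below the measured level are counted). Cox7c, a small structural subunit, had the largest steady difference. It ran from 0 through 160.5 to 310.5 CPM with micronuclei and from 160.5 through 232.9 to 648.5 without, and its log2 ratio was −0.93, −0.72 with equal weight and −0.61 without MN- cell 7. The difference of medians exceeded the SD of micronucleated cells, 66.8 CPM, and not that of the others, 126.6. Cox7a2l (−0.49), Cox7a2 (−0.31), Cox5b (−0.28), Cox6a1 (−0.15) and Cox8a (−0.15) were lower with a steady sign. In mean log2 CPM Cox5b and Cox7a2l were at 0.06 and 0.02, and without the 6 doubtful cells Cox8a was at 0.07. Cox6b1 was higher at 0.23 (0.02 in mean log2 CPM), and Cox7b, at 0.02, had no steady sign.

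In complex V 4 genes were higher and 11 lower, with a median of −0.20 (−0.08 with equal weight). Atp5b, which forms the catalytic sites, was the highest, with 388.7 through 1024 to 1753 CPM with micronuclei and 240.3 through 695.8 to 1224 without. Its log2 ratio was 0.40 in summed reads and 0.54 with equal weight, and it lay between 0.26 and 0.57 under the other scales, filters, depth and sets of cells, and was 0.24 without MN- cell 7. The difference of medians exceeded the SD of the cells without micronuclei, 319.4 CPM, and not that of micronucleated cells, 417.5. All 3 genes for subunit c were lower: Atp5g2 at −0.79, Atp5g3 at −0.69 and Atp5g1 at −0.14, the last with a sign that depended on MN- cell 7. Atp5g3 ran from 72.6 through 186.6 to 504.2 CPM and from 82.1 through 340.2 to 747.0, and its log2 ratio was −0.49 without the 6 doubtful cells. Among the stalk and membrane subunits 1 was higher and 6 lower, including Atp5k (−0.41) and Atp5o (−0.20) with a steady sign. Atp5s, the name match that is no subunit, had reads in few cells and a ratio of 0.12 that ran from −1.24 to 1.73 with the cell left out (MN+ cell 14 and MN- cell 4).

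Genes around the chain gave a mixed picture. Of 53 listed assembly factors 52 were analysed and 43 measured; 20 were higher and 23 lower, with a median of −0.18, and 6 of the 43 passed 2-fold higher and 3 lower, where 22.9% and 14.7% of all measured genes did. Assembly factors of complex IV were lower in 12 of 18, with a median of −0.38 and −0.05 in mean log2 CPM. Cmc1, one of them, was at 15.2 against 65.8 CPM (log2 ratio −2.05, −1.69 at the least over leave-outs). The steadier factor Uqcc2 of complex III was at 244.6 against 386.9 CPM (−0.66). Of the factors with high ratios Ndufaf3 had 86.2% of its reads in MN+ cell 11. Of the subunits outside the symbol rule 5 of 7 were measured: Ndufab1 (−0.28), Usmg5 (−0.17) and 2010107E04Rik (−0.31) were lower with a steady sign, Atpif1, the inhibitor of complex V, was higher (0.21), and Cox4i1 was at 0.06.

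Among upstream regulators 9 of 15 were measured, 4 higher and 5 lower. Of the 9, 2 passed 2-fold higher and 2 lower, where 22.9% and 14.7% of all measured genes did. The sign held for 2 higher and 2 lower ones. Their median log2 ratio of −0.36 ran from −0.62 to 0.27 with 1 cell left out. These genes were sparse, with 5 reads in a median of 12 cells and a median CV of 1.55. Nrf1 stood at 13.4 against 61.8 CPM (log2 ratio −2.13), with 5 reads in 7 of 35 cells and 42.6% of its reads in MN- cell 8, and Yy1 at 35.4 against 77.9 (−1.12). Pprc1, a coactivator related to PGC-1, was at 41.6 against 3.53 CPM (3.23), and Hif1a at 229.7 against 97.1 (1.23). Ppargc1a, Ppargc1b and Esrra were below the measured level. Of 13 genes of the citric acid cycle 8 were higher and 5 lower, with a median of 0.32 that was 0.18 with equal weight. Idh3b, a subunit of the enzyme that makes NADH from isocitrate, was at 134.2 against 52.6 CPM (1.33, 0.69 with equal weight), and Suclg1 at 60.8 against 125.8 (−1.04, −0.32 with equal weight and −0.20 without MN- cell 8). The carriers and channels of ADP, phosphate and small molecules were 4 higher and 2 lower with a median of 0.15 in summed reads. That median was −0.12 with equal weight, −0.13 after thinning and −0.17 in mean log2 CPM, and ran from −0.11 to 0.28 with 1 cell left out, so no direction is read from it. For comparison, mitochondrial ribosomal proteins were 42 higher and 35 lower of 77 (median 0.06), and cytosolic ribosomal proteins 17 higher and 69 lower of 86 (median −0.23, −0.04 with equal weight). The mitochondrially encoded subunits were lower in 7 of 8 in summed reads, with a median of −0.56 that was −0.05 with equal weight.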

How the data were processed

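The values are raw read counts per gene from 35 single-cell Smart-seq2 libraries, used as deposited. The submitters' processing notes name STAR and the build GRCm38.p5. How reads were counted, with which filters and whether by strand, is not given in the sources used here. All 35 columns of the count table were matched to a sample and 0 were left unused. Of 19147 features, 62 spike-ins were set apart, 827 genes had no read, and among 595 pairs of cells 0 were identical. No doublet caller was run, as cells were cut out singly by laser. CPM, the log2 ratio of summed reads with 1 CPM added, CVs and correlations were computed in Python 3.11.15 with pandas 2.3.3, numpy 2.4.6 and scipy 1.17.1, and figures drawn with matplotlib 3.10.9. TMM factors came from edgeR 4.0.16 and size factors from scran 1.30.0 in R 4.3.3. The scripts were tested on simulated data. Lengths came from GENCODE M21 (18394 of 19085 genes and all 85 members matched by symbol or older symbol) and promoters from RefSeq, GRCm38.p6. In 28 members exons overlap another gene, in 25 of them on the opposite strand.

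Genes were named by rule: all 4 of complex II and the 3 highest per merged exon length in each other complex, the 4 largest ratios each way among those with a steady sign, the 3 lowest and 3 highest CVs, Cyc1, Cycs, the isoform families and the 5 genes most like the summed members. Other names were chosen after their values were seen. The members, lists and rule were chosen with earlier results of these data known. Each group is 1 sample, so no test was run. Alternatives changed the weight of cells, scale, scaling, pseudocount (0.1 and 5 CPM), filter, depth and cells; those without cells over 100 CPM of macrophage markers, with principal transcript lengths, and for the summed level without the 6 doubtful cells, were chosen after seeing the data. The values of 1 member are not reported here, in the text or in the plot of ratios; it stays in the counts and medians.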

Additional observations from a re-analysis of the deposited data

How the results depend on the processing

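No paired analysis was possible because the labels give no replicate numbers. For the 37 measured members named by rule, 440 log2 ratios were recomputed under alternatives other than leaving out 1 cell. Of these 380 lay within the range that leaving out 1 cell gives for the same gene and 60 outside it. The sign differed from that reported in 25, over 14 members, of which 0 were past 2-fold as reported. The cause of each move was not tested. In mean log2 CPM the median log2 ratio was 0.013 over all members, 0.17 for complex I, −0.024 for II, 0.42 for III and −0.025 for IV, with 8 members past 2-fold higher and 1 lower. With TMM scaling it was −0.28 over all members, −0.23 for I, −0.18 for III, −0.29 for IV and −0.34 for V, with 3 past 2-fold lower. With scran factors it was −0.13 for III, 2 members passed 2-fold lower and the median CV was 0.59. Without a filter it was 0.017 for IV, 1 member was lower and the CV was 0.58. With equal weight it was −0.079 for V. After thinning it was −0.12 for V, with 1 lower and a CV of 0.58. Without the 6 cells of few genes or many mitochondrial reads 1 was lower and the CV was 0.48. Without the 4 macrophage-marker cells 5 were higher and 2 lower. Leaving out each cell in turn gave medians from −0.24 to −0.06 over all members, −0.20 to −0.001 for I, −0.63 to −0.18 for II, −0.13 to 0.05 for III, −0.28 to −0.04 for IV and −0.31 to −0.14 for V, with 3 to 6 members past 2-fold higher and 0 to 2 lower. Reads per cell limit the genes of low level most: Ndufs1, Uqcrc2, Cox6b2 and Atp5s had 5 reads in 20, 20, 7 and 9 of 35 cells.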
